A study of Mus musculus with 36 samples.

Results

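H19 and Igf2, neighbouring imprinted genes of mouse chromosome 7, were followed by RNA-seq over 9 daily time points as Xmas mouse embryonic stem cells (mESCs) left the naive state. They are 2 of the 25965 genes in the deposited table, taken by name. The pair was chosen by its readout, because from day 0 to day 8 H19 and Igf2 had the highest and the second highest log2 differences of all genes tested, at 13.57 and 10.63, with the keratin gene Krt8 just outside the pair at 9.52. These day 8 differences state how the members were picked and are given without a test.

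Imprinted genes are read mainly from the copy inherited from a particular parent. H19 is a long non-coding RNA read from the maternal copy, and Igf2, which encodes the fetal growth factor IGF2, is read from the paternal copy. A control region between the genes is methylated on the paternal copy. On the unmethylated maternal copy the insulator protein CTCF binds it and keeps enhancers beyond H19 from reaching Igf2, so that the same enhancers serve H19 on the maternal chromosome and Igf2 on the paternal one. Both genes are low in mESCs and abundant in embryonic endoderm, mesoderm and placenta. Here the cells were of a single inbred strain, so reads could not be given to a parental copy, and only the total level of each gene is described.

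The cells were female C57/Bl6 Xmas mESC lines with GFP on 1 X chromosome and mCherry on the other, both at Hprt. They were grown in 2i medium with LIF, which holds mESCs in the naive state, and were weaned stepwise into a serum medium (DME HiHi) without LIF. Each day from 0 to 8 has 4 libraries, 36 in all, from the lines X14 and X18, each as a culture labelled double and a culture labelled single. The labels do not explain double and single, so the words serve here only as names. Each combination of line and label has the same replicate number on every day and is taken here as 1 culture. The days of a culture are therefore treated as repeat samples of it. The paper calls the 4 replicates of this course independent, but no label says that the lines or cultures were derived independently. The p-values measure the spread between these libraries only.

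The libraries held 612740 to 2445826 reads in genes, with a median of 1297944. Levels are given as RPKM, reads scaled to exon length and to mapped reads, which can be compared between genes, or as RPM, scaled to mapped reads only. At this depth 3 reads of H19 correspond to 0.439 to 1.64 RPKM and 3 reads of Igf2 to 0.182 to 0.681 RPKM. All 7 naive mESC markers had reads on day 0, and their summed level went from 3788 to 4602 RPM on day 0 to 352 to 677 RPM on day 8. The balance of X-linked against autosomal genes was higher in the double than in the single library in 17 of 18 line and day pairs, by 0.19 to 1.17 on the log2 scale. In X14 on day 0 it was lower by 1.29, so the X14 double and X14 single libraries of that day go against their labels. Comparisons with day 0 are given with and without them where a call moved.

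In the mm10 build H19 lies at chr7:142575529-142578143 and Igf2 at chr7:142650766-142666816, both on the minus strand and 72622 bp apart. Each gene carries a microRNA precursor. That of miR-675 lies within an exon in 3 of 7 annotated H19 transcripts (chr7:142577064-142577147, minus strand). That of miR-483 lies within an intron in 7 of 9 annotated Igf2 transcripts (chr7:142654924-142654996, minus strand) and in an exon of none. The mature sequences, from RefSeq for GRCm38.p6, are shown because their precursors lie within these genes. Capitals mark the seed, bases 2 to 8, which sets target pairing.
mmu-miR-675-5p: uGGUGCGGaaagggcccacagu
mmu-miR-675-3p: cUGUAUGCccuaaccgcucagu
mmu-miR-483-5p: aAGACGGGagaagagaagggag
mmu-miR-483-3p: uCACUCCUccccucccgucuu
The 4 seeds differ from each other, and none is shared with another of the 1679 mature miRNAs in that table. The libraries did not measure mature miRNAs, and the precursors have no row of their own in the deposited table.

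RefSeq gives 4 promoter windows for Igf2, each from 250 bases before to 50 bases after a transcription start. The window at chr7:142657447-142657746 (minus strand, GRCm38.p6), is shown because it had the most GC boxes of the 4. A GC box is the letters GGGCGG on either strand, the core letters bound by SP1-type factors, and capitals mark the matches.
Igf2 window: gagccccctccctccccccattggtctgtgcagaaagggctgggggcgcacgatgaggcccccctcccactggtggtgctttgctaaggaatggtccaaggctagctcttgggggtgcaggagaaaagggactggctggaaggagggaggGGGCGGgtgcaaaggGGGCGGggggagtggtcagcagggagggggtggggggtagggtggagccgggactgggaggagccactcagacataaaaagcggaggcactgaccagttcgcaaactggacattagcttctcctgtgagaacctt
It held 2 GC boxes, where 19.5% of 32851 promoter windows of the same length held 2 or more, and its GC content was 63.3% against a median of 52.7%. The other windows held 1, 0 and 0. The letters TATAAA were in none of the 4 windows and in 13.6% of all windows. The match of letters says nothing of binding.

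H19 was near the detection limit in the naive state and went above it early. On day 0 it had 0.195 RPKM in X14 double, 0.390 in X14 single, 0.433 in X18 double and 1.44 in X18 single, from 1 to 4 reads. On day 1 the values in the same order were 1.19, 1.99, 1.26 and 1.36 RPKM. On day 2 they were 2.86, 10.8, 3.23 and 7.12 RPKM. All 4 libraries of day 2 lay above the highest library of day 0, and so did all libraries of every later day, which puts the first rise of H19 on day 2 by this rule. With the limit at 4 times the highest day 0 library it fell on day 3, and without X18 single, the library with the 4 reads, it fell on day 1. Against the upper exact Poisson 95% limit of a culture's own day 0 count, H19 stayed above from day 1 in both X14 cultures and from day 2 in both X18 cultures. With the day 0 libraries of X14 exchanged, the day for X14 double became 2 and that for X14 single was again 1. Leaving both out did not change the highest library of day 0, which is X18 single.

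After day 2 H19 was higher on each day than on the day before in every culture. On day 3 it had 7.31 RPKM in X14 double, 12.9 in X14 single, 13.4 in X18 double and 19.7 in X18 single. On day 4 the values were 98.3, 52.6, 99.7 and 52.9 RPKM, every one above the highest of day 3. This step was 2.68-fold to 13.5-fold over the cultures, whereas the step to day 5 was 1.95-fold to 2.75-fold. The levels on day 5 were 191, 115, 274 and 116 RPKM. A day later they were 1489.9, 398, 1412 and 271 RPKM. On both later days the double cultures were the higher ones again. The levels were 5354, 1371, 5335 and 1307 RPKM on day 7. They reached 8458, 3278, 10913 and 3450.0 RPKM on day 8. The mean went from 0.615 ± 0.560 RPKM (SD, n = 4) on day 0 to 6525 ± 3786 RPKM on day 8, when this gene alone took 0.777% to 2.59% of the mapped reads of a library.

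Igf2 followed later and stayed lower. On day 0 it had 2, 1, 1 and 0 reads, or 0.162 RPKM in X14 double, 0.0809 in X14 single, 0.180 in X18 double and none in X18 single, which allows up to 0.447 RPKM at 3 reads. No read was found in either X18 culture on day 1, and X18 double had none on day 2. By the rule used for H19 the first rise of Igf2 came on day 3, with 1.28, 0.824, 1.41 and 0.852 RPKM. At 4 times the highest day 0 library the day was 5, and without X18 double it was 2. By the culture's own day 0 limit it was day 3 in X14 double, day 2 in X14 single and day 5 in both X18 cultures. With the day 0 libraries of X14 exchanged it was day 3 and day 5 in X14 double and X14 single. The first rise of Igf2 is thus fixed only to within days by counts of 5 to 66 reads, and the mean did not differ beyond its spread between day 3 (1.09 ± 0.298 RPKM, SD, n = 4) and day 4 (1.04 ± 0.749 RPKM).

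Igf2 left the range of the early days on day 6. On day 5 it had 1.36 RPKM in X14 double, 3.59 in X14 single, 2.84 in X18 double and 4.01 in X18 single. On day 6 the values were 51.9, 11.2, 23.2 and 6.93 RPKM, all above the highest of day 5, and the step over the cultures was 1.73-fold to 38.1-fold. This was the only step of Igf2 at which the lowest library passed the highest of the day before. H19 had such steps to days 2, 4 and 5. Igf2 reached 224, 72.9, 91.5 and 32.6 RPKM on day 7. At the end it had 463, 250.3, 181 and 94.8 RPKM, a mean of 247 ± 157 RPKM (SD, n = 4) and 0.0542% to 0.265% of the mapped reads.

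**Figure D1:**
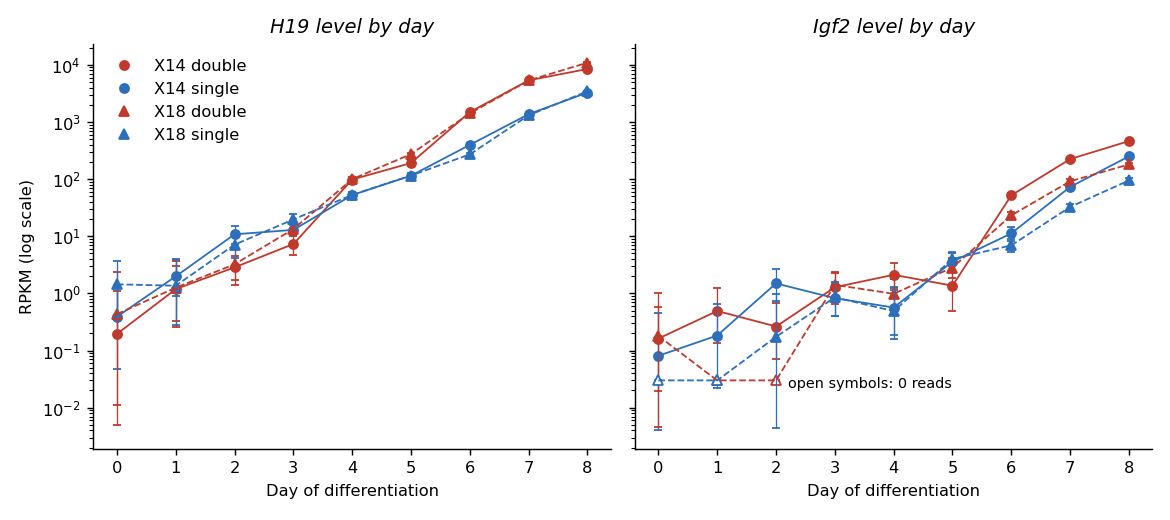
Level of H19 (left) and Igf2 (right) in RPKM on a log axis against day, with a line for each of the 4 cultures, error bars giving exact Poisson 95% intervals of the read count and open symbols marking libraries with 0 reads. H19 leaves its day 0 range first and reaches 3278 to 10913 RPKM on day 8, against 94.8 to 463 RPKM for Igf2, and on days 6 to 8 both double cultures (red) lie above the single culture of their line.

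The ratio of H19 to Igf2, both per length, was on average highest on day 4 and lower on each later day. On day 0 it was 1.21 in X14 double, 4.83 in X14 single, 2.41 in X18 double and 10.7 in X18 single, and the intervals of single libraries are wide (0.0204 to 23.2 in X14 double). Its mean on the log2 scale was 1.81 ± 1.35 (SD, n = 4) on day 0 and 2.68 ± 0.96 a day later. It was 4.02 ± 1.10 on day 2, against 3.57 ± 0.88 on day 3. Igf2 had 0 reads in X18 single on day 0, in both X18 cultures on day 1 and in X18 double on day 2. There 0.9 read stood in for 0, so the means and SDs of these 3 days depend on that value. On day 4, when H19 had stepped up and Igf2 had not, it was 6.37 ± 0.56, with ratios of 46.5, 93.1, 101 and 108. It then stood at 5.89 ± 1.14 on day 5, at 5.30 ± 0.46 and 5.0 ± 0.74 on the following days, and at 4.75 ± 0.99 at the end. From day 4 on, the means of neighbouring days differ by less than the larger of their SDs. Single cultures did not all follow the mean from day to day. X14 double went from 46.5 on day 4 to 140 on day 5, with 6 reads of Igf2. X18 double stood at 60.9, 58.3 and 60.3 on days 6 to 8, and X18 single went from 28.8 on day 5 to 40.1 on day 7. In every culture the ratio of day 8 was below that of day 4.

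The cultures differed in this ratio on day 8, with an SD on the log2 scale (0.99) below those of day 0 (1.35) and day 5 (1.14). On day 8 H19 was 18.3 times Igf2 in X14 double, 13.1 times in X14 single, 60.3 times in X18 double and 36.4 times in X18 single, so both X18 cultures lay above both X14 cultures. Within a label, X18 was above X14 in 6 of 6 pairs of days 6 to 8, by 0.14 to 1.72 on the log2 scale with a mean of 1.13. On day 5 the order was the other way, at -0.54 in double and -0.15 in single. On days 0 to 3, when counts were low, X18 was above X14 in 7 of 8 pairs, with a mean of 1.03. Double was above single in 5 of 6 pairs of days 6 to 8, with a mean of 0.40. Over the 4 culture means of days 5 to 8 the exact permutation test, two-sided, gave p = 0.667 for line and p = 0.333 for label, and 0.333 is the smallest p that 2 cultures against 2 allow.

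**Figure D2:**
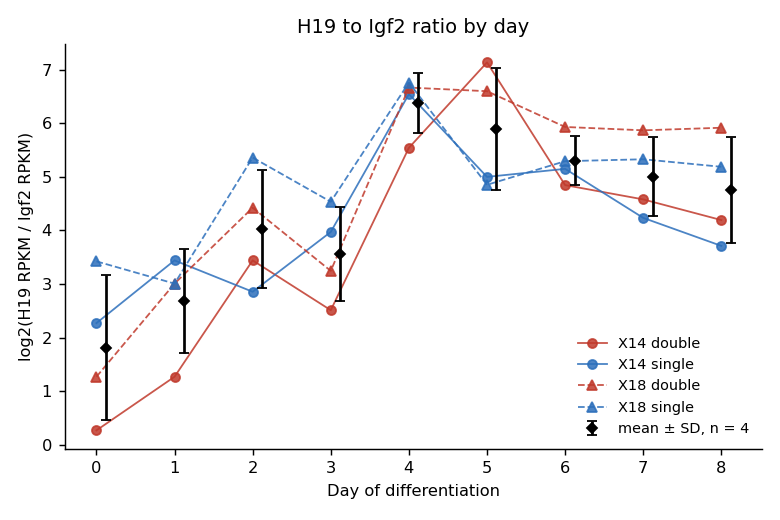
Log2 ratio of H19 RPKM to Igf2 RPKM against day for each culture, with black diamonds for the mean and bars for the SD of the 4 libraries. The mean is highest on day 4 at 6.37, and on day 8 the cultures lie between 13.1-fold in X14 single and 60.3-fold in X18 double.

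H19 differed between the labels late in the course. On each day from 4 to 8 the double library lay above the single library of its line, in 10 of 10 pairs. Over the 16 libraries of days 5 to 8 the log2 difference was 1.66 (SE 0.18, 95% interval 1.29 to 2.03), a 3.16-fold higher level in double (limma, Benjamini-Hochberg adjusted p = 1.5e-05). A gene is called here at an adjusted p under 0.05 and a difference of at least 2-fold, and 3.28% of the 14612 genes tested were called higher in double in this comparison. By line the difference of H19 was 0.74 to 1.97 in X14 and 1.25 to 2.38 in X18 over those days. The interaction of line and label was 0.34 (95% interval -0.41 to 1.08, adjusted p = 1.0), and limma called 0 genes for it, with 328 at an unadjusted p under 0.05. Quantile normalization lowered the H19 label difference to 1.05, with an adjusted p of 0.014.

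Early in the course H19 stood in the opposite order. On days 0 to 3 it was lower in double than in single in 8 of 8 pairs, and in 6 of 6 pairs without day 0. The mean difference of days 0 to 3 was -1.0 on the log2 scale, from 1 to 96 reads a library. Of these pairs, X18 on day 1 had 3 reads in each library. X14 on day 0 had 1 and 2 reads, and its order turns if those libraries are exchanged. This early difference was not a call: it had an adjusted p of 0.13 on days 0 to 3, and on days 1 to 3, at -0.88 (adjusted p = 0.029), it was under 2-fold. On day 2, the clearest of these days, double had 2.86 and 3.23 RPKM and single 10.8 and 7.12 RPKM. Fitted over all 36 libraries, the label difference of days 4 to 8 was above that of days 0 to 3 by 2.52 (SE 0.29, limma adjusted p = 5.0e-06), a comparison set up after the levels had been seen. It was 2.39 (adjusted p = 1.9e-06) without day 0, where the X14 libraries go against their labels. In the comparison with day 0, 1.21% of genes were called in the same direction. Because of this change of order the label difference of H19 over all 9 days was only 0.39 (adjusted p = 0.34).

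The label difference of Igf2 changed sign between days up to day 5 and had 1 sign afterwards. It was above 0 in both lines on day 3, at 0.64 in X14 and 0.73 in X18 from 10 to 14 reads a library. On day 4 it was 1.90 and 1.01, from 5 to 18 reads. In 6 of 6 pairs of days 6 to 8 it was higher in double, by 0.89 to 2.21 on the log2 scale. On day 5 it was lower in double in both lines, with 6 and 26 reads in double against 25 and 66 in single. Over days 5 to 8 the difference was 0.87 (SE 0.35, 95% interval 0.13 to 1.61), which did not pass the test (limma adjusted p = 0.13). With the culture as a replicate block in limma the same difference had an SE of 0.24 and an adjusted p of 0.012. The correlation within cultures was estimated at -0.15. A negative value lowers the SE, so the block is no stricter test of the 4 cultures. With voom weights on the recovered reads the difference was 1.17 (limma adjusted p = 0.0037). On days 7 and 8 alone it was 1.23 (SE 0.15, 95% interval 0.91 to 1.55, adjusted p = 4.7e-04), a 2.35-fold higher level in double, where 4.39% of genes were called higher in double. The interaction of line and label for Igf2 was 0.09 (95% interval -1.46 to 1.64), too wide to say whether the lines differ in it.

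Between the lines Igf2 was lower in X18 on the last days, and H19 did not differ detectably. Over days 5 to 8 the X18 minus X14 difference of H19 was 0.03 on the log2 scale (SE 0.18, 95% interval -0.34 to 0.40, limma adjusted p = 1.0). That of Igf2 was -0.73 (SE 0.35, 95% interval -1.47 to 0.01, adjusted p = 1.0), and 0.0137% of genes, 2 of 14612, were called either way. On days 6 to 8 Igf2 was lower in X18 in 6 of 6 pairs of the same label. On days 7 and 8 the difference was -1.30 (SE 0.15, 95% interval -1.62 to -0.98, adjusted p = 0.0089), a 2.47-fold lower level in X18, where 0.951% of genes were called lower in X18. On day 8 Igf2 had 463 and 250.3 RPKM in the X14 libraries and 181 and 94.8 RPKM in the X18 libraries. H19 on these 2 days differed by 0.09 between the lines (95% interval -0.41 to 0.60).

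Over the 4 culture means of days 5 to 8, which treat a culture as the unit, H19 stood at 1895 RPKM in X14 double and 2179 in X18 double against 673 in X14 single and 613 in X18 single (geometric means). Igf2 stood at 52.0 RPKM in X14 double, 32.3 in X18 double, 29.3 in X14 single and 17.1 in X18 single. The exact permutation test, two-sided, gave p = 0.333 for label in both genes, the smallest it can give here. For line the same exact permutation test gave p = 1.0 for H19 and p = 0.667 for Igf2.

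**Figure D3:**
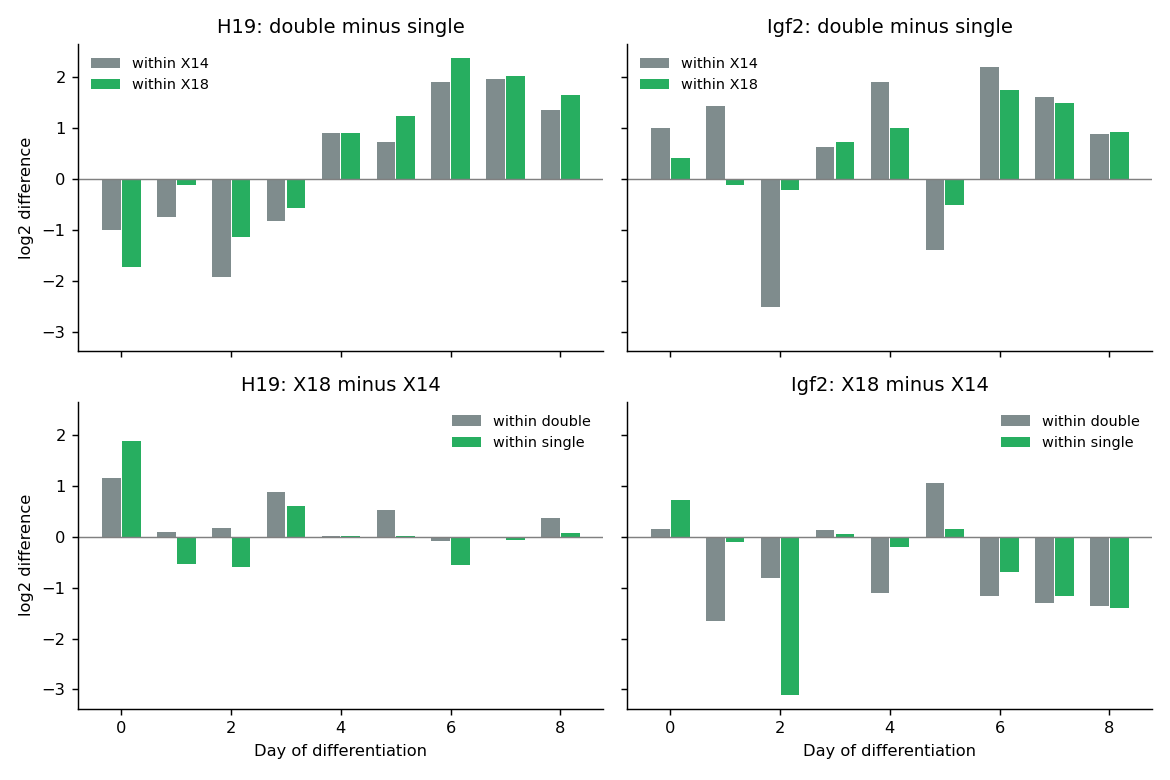
Log2 differences of H19 (left) and Igf2 (right) by day, with bars for double minus single within each line (top) and for X18 minus X14 within each label (bottom), all bars starting at 0. H19 is below 0 in all 8 label pairs of days 0 to 3 and above 0 in all 10 of days 4 to 8. The H19 pairs of day 0 rest on 1 to 4 reads a library, and the X18 pair of day 1 on 3 reads in each. Igf2 is below 0 in all 6 line pairs of days 6 to 8.

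The RNA comes from whole cultures, so fewer cells with the gene on and less RNA per cell cannot be told apart. Marker lists of other cell types moved with the days and the label. The 5 simple epithelium markers, keratins and Epcam, summed to 60.6 to 104 RPM on day 0 and 2959 to 6152 RPM on day 8, and on days 6 to 8 to 1827 to 6152 RPM in double against 1154 to 3575 RPM in single. The 7 trophoblast markers, which share Eomes with the mesoderm list, summed to 170 to 394 RPM in double and 83.2 to 235 RPM in single on days 6 to 8. They already summed to 78.1 to 134 RPM on day 0, mostly from Tfap2c at a mean of 95.9 RPM. Tfap2c was at 150 RPM in double and 65.7 RPM in single on days 6 to 8. Of the 7 markers Gata3, Tfap2c and Ascl2 were called higher in double over days 5 to 8. Eomes, at 17.2 RPM in double and 36.3 RPM in single on days 6 to 8, and Cdx2, at 2.69 and 3.76 RPM, were not called, and the placental gene Tpbpa had no read on those days. The keratin gene Krt7 was called higher in double too. The 8 mesoderm markers summed to 60.8 to 157 RPM in double and 40.2 to 265 RPM in single, and the 9 endoderm markers to 11.3 to 33.99 RPM in double and 19.2 to 82.2 RPM in single. Within these lists Hand1 was called higher in double, and T and Dab2 lower. Afp, Ttr and Apoa1, which define yolk sac and liver endoderm, had no read on days 6 to 8. Of the 7 naive markers Tbx3 was called higher in double, at 25.7 RPM against 5.49 RPM on days 6 to 8. The others were not called, with Esrrb at 48.1 and 19.9 RPM, Tfcp2l1 at 80.5 and 34.1 RPM and Klf4 at 14.9 and 4.61 RPM, while Pou5f1 was at 353 and 497 RPM and Nanog at 194 and 274 RPM. The part of these cell types in the levels of H19 and Igf2 was not tested.

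The genes around the pair were looked at next, in the interval from 200 kb before H19 to 200 kb beyond Igf2. It holds 13 genes of the table, of which 4 had no read in any library and 8 were tested. Igf2as, an antisense transcript that overlaps the upstream part of Igf2, had no read up to day 4, 1 read in each single culture on day 5 and none in the double cultures that day. On day 8 it had 76 reads in X14 double, 40 in X14 single, 17 in X18 double and 2 in X18 single. This is at least 48.7-fold above day 0, taking 3 reads over the 4 day 0 libraries as the floor. Igf2as was called higher in double over days 5 to 8, with a log2 difference of 2.10 (SE 0.40, limma adjusted p = 0.0027). Its reads came to 1.39% of those of Igf2 on day 8, and since the strand setting of the counting is not given in the sources used here, reads of Igf2 and Igf2as where they overlap cannot be told apart.

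Of the other neighbours, Lsp1, a leukocyte cytoskeleton gene, and the muscle troponin genes Tnnt3 and Tnni2, all on the far side of H19 from Igf2, had no read on day 0 and were called higher on day 8 than on day 0, as were 23.9% of all genes tested, while 11.1% were called lower. They stayed low, at 15.2 RPM for Lsp1, 3.47 RPM for Tnnt3 and 2.92 RPM for Tnni2. Ctsd, a lysosomal protease gene, was at 395 RPM on day 0 and 670 RPM on day 8. Its log2 difference of 0.71 (limma adjusted p = 0.023) was under the 2-fold limit. Ctsd passed that limit after quantile normalization, at 1.04, and without X14 single, also at 1.04. With 75th percentile scaling the difference was 0.43 (limma adjusted p = 0.20). Mrpl23, a mitochondrial ribosomal protein gene on the same side of H19, was at 0.488 RPM on day 0 and 0.850 RPM on day 8. Ins2, the insulin gene that adjoins Igf2, and Nctc1, next to the muscle enhancers of the region, had no read in any of the 36 libraries.

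IGF2 acts through the receptors Igf1r and Insr, while Igf2r, itself imprinted, takes IGF2 to the lysosome. The other genes of this axis and the known regulators of the imprint were taken as a list of 34 genes, of which 28 were tested. On day 8 against day 0, 9 were called higher and 2 lower, beside the shares of 23.9% and 11.1% of all genes, and the median log2 difference was 0.66 against 0.23 for all genes tested. Without the X14 libraries of day 0, 13 were called higher and 2 lower, beside 30% and 12.3% of all genes, with Igf2r, Grb10, Igf2bp1, Igf2bp2 and Igf2bp3 added to those higher and Irs4 lost. Grb10, Igf2bp2 and Igf2bp3 were also called when X14 double was left out on every day. By label, over days 5 to 8, 2 genes of the list were called higher in double and none lower, beside 3.28% and 1.4% of all genes, with a median log2 difference of -0.28 against -0.04 for all genes tested. Scaling to the 75th percentile lowered the median of all genes by 0.28, and the share of called genes that were higher went from 68.1% to 53.4%.

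None of the other ligands had reads on days 0 or 8. Igf1 was at 0 on these days, and Ins1 and Ins2 had no read in any library, so that Igf2 was the IGF or insulin ligand with reads at the end of the course. Igf1r was at 4.65 RPM on day 0 and at 39.3 RPM on day 8, a log2 difference of 3.66 (SE 0.74, limma adjusted p = 1.3e-04), with its highest mean on day 7 at 69.1 RPM. Insr went from 13.5 to 58.0 RPM, a log2 difference of 2.12 (adjusted p = 9.2e-05). Igf2r was at 88.5 and 127 RPM, a log2 difference of 0.57 (SE 0.40, adjusted p = 0.24).

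Of the 4 adaptors that carry the signal inside the cell, 3 were called higher. Irs1 had no read on day 0 and was at 26.0 RPM on day 8, at least 58.8-fold higher, and Irs2 went from 3.14 to 64.9 RPM, a log2 difference of 4.4 (SE 0.58, limma adjusted p = 1.7e-07). Irs4 was called higher at 1.21 RPM on day 8, and lost the call after either other scaling, without the X14 libraries of day 0, and without X14 double (adjusted p = 0.17), X14 single (0.31) or X18 single (0.060). Grb10, an imprinted adaptor that damps the receptors, was at 74.7 and 122 RPM (adjusted p = 0.14).

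Of the binding proteins, which hold IGFs outside the cell, 3 of the 7 tested were called higher. Igfbp3 went from 6.0 to 249 RPM, a log2 difference of 5.37 (SE 0.38, limma adjusted p = 2.5e-13), and Igfbp4 from 5.61 to 93.4 RPM, a log2 difference of 4.29 (SE 0.41, adjusted p = 3.4e-10). Igfbp6, a binding protein that prefers IGF2, had no read on day 0 and was at 8.69 RPM on day 8, at least 18.8-fold higher. It was also called higher in double over days 5 to 8, at 1.09 (SE 0.33, adjusted p = 0.045), while Igfbp3 was lower in double by just under 2-fold (adjusted p = 1.5e-04). Igfbp2 was the most abundant of them throughout, at 548 and 961 RPM, with a log2 difference of 0.75 (SE 0.27, adjusted p = 0.021) that passed 2-fold only after quantile normalization, at 1.12. The proteases Pappa and Pappa2, which cut binding proteins, had 5 and 6 reads on day 8 and were not tested. The Igf2 mRNA binding proteins Igf2bp1, Igf2bp2 and Igf2bp3, present at 322, 79.5 and 112 RPM on day 0, were not called, with log2 differences of 0.54, 0.86 and 0.80.

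Of the 7 imprint control factors, 2 were called lower. Zfp57, a zinc finger protein that holds methylation at imprinted regions, went from 216 to 36.5 RPM, a log2 difference of -2.61 (SE 0.23, limma adjusted p = 3.0e-11). Dppa3, which protects imprints in the early embryo, went from 105 to 18.99 RPM, a log2 difference of -2.46 (SE 0.65, adjusted p = 0.0024), and was higher in double over days 5 to 8 by 1.40 (SE 0.33, adjusted p = 0.011). Ctcf stood at 143 and 149.5 RPM with a log2 difference of 0.14 (SE 0.22), and with 75th percentile scaling the sign turned, to -0.14. The cofactor Trim28, the cohesin subunit Rad21 and the zinc finger gene Zfp445 were not called, and Ctcfl, a CTCF paralogue, was called lower only after scaling to the 75th percentile. Of the transcription factors known to act on the pair, Hmga2 was called higher, from 7.41 to 44.0 RPM with a log2 difference of 2.66 (SE 0.48, adjusted p = 2.7e-05). Plagl1, which can drive H19 and Igf2, was at 46.9 RPM on day 0, 3.25 RPM on day 4 and 19.5 RPM on day 8, and was called lower only after quantile normalization.

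**Figure D4:**
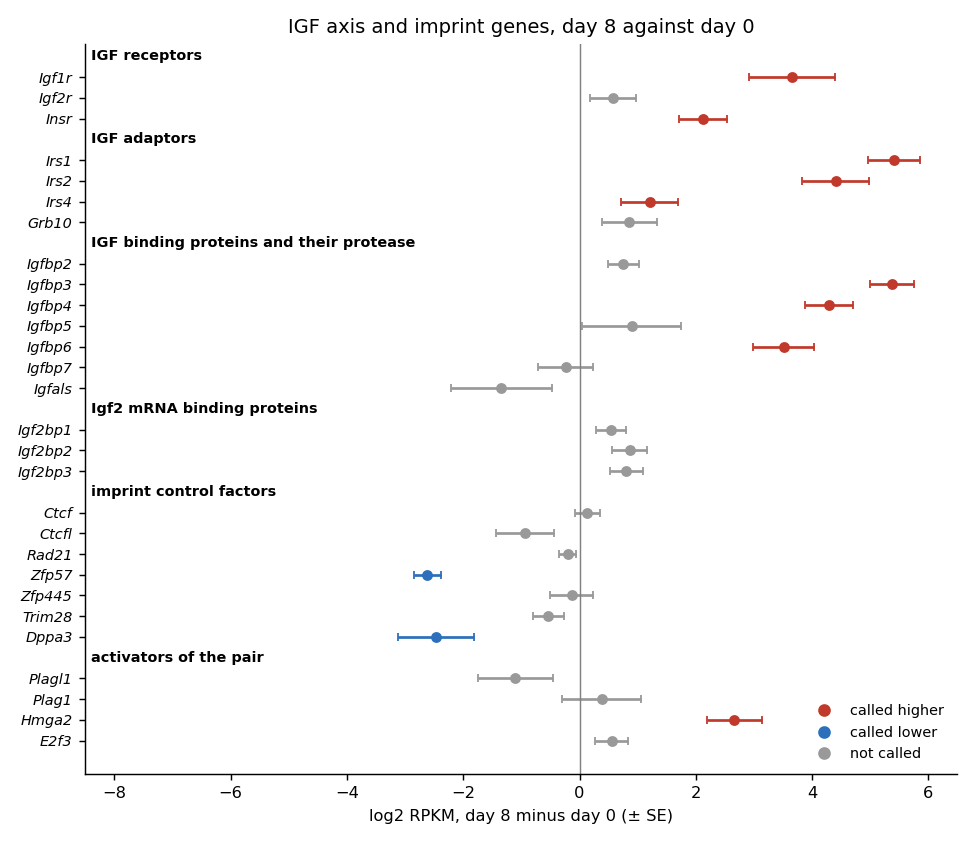
Log2 RPKM difference of day 8 minus day 0 with its SE for the 28 tested genes of the IGF axis and of imprint control, grouped by role, with called genes in colour. Igf1r, Insr, 3 adaptors, 3 binding proteins and Hmga2 are called higher and Zfp57 and Dppa3 lower.

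Across the 36 libraries the log2 levels of H19 and Igf2 had a Pearson correlation of 0.94 (Spearman 0.94), and with each day's mean removed 0.49 (Spearman 0.44). Within days 5 to 8, with day means removed, it was 0.64 (Spearman 0.70) over 16 libraries. The points share cultures and days and are not independent, and the values are a description. Both genes were picked for their rise from day 0 to day 8 in these libraries. A high correlation over the 36 libraries therefore follows in large part from that choice.

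**Figure D5:**
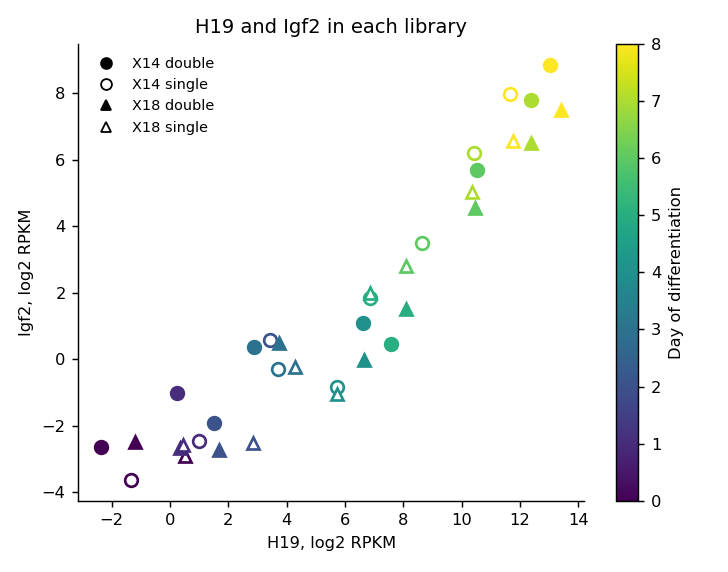
Log2 RPKM of Igf2 against that of H19 in each of the 36 libraries, with circles for X14 and triangles for X18, filled symbols for double and open ones for single, and colour for the day. The libraries of day 4 lie to the right with Igf2 still low, and on day 8 the X14 libraries lie above the X18 libraries at like H19 levels.

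The genes whose pattern was most like each member were ranked by Pearson correlation of log2 levels among genes that averaged 10 RPM or more. Over 36 libraries those closest to H19 were Agpat4 (0.97), a lipid acyltransferase gene, AC104834.1 (0.95), the keratin gene Krt18 (0.95), Carhsp1 (0.95) and Cdkn1c (0.95), the imprinted cell cycle inhibitor of the same chromosome. Igf2 ranked 8th among 9403 genes. Those closest to Igf2 were the actin-severing gene Gsn (0.95), Krt19 (0.95), H19 itself (0.94) and the X-linked genes Mbnl3 (0.94) and Nrk (0.94). These values share the time course and give the order only. The high rank of each member for the other goes with the choice of both by their rise.

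With day means removed over days 5 to 8 the closest genes were others. For H19 they were Dnmt3l (0.97), the cofactor of de novo DNA methylation, the X-linked homeobox gene Rhox6 (0.96), the water and glycerol channel Aqp3 (0.96), the chromatin gene Mta3 (0.96) and Laptm5 (0.96), and Igf2 ranked 814th of 9475. These 5 were picked by likeness to H19 over libraries in which H19 differed by label, so their order by label follows from the choice. Each was higher in double on days 6 to 8, as with Dnmt3l at a mean of 256 RPM against 93.9 RPM. Rhox6 was at 329 RPM against 55.5 RPM. For Igf2 they were Arid3a (0.92), Bicd2 (0.92), Dusp3 (0.92), Sema4c (0.91) and Rffl (0.91), with H19 at rank 1285.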

How the data were processed

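RNA-seq of Xmas mESCs (TruSeq kit) gave 36 libraries, 4 a day over 9 days. Per the study's methods the authors trimmed single-end reads with trim_galore, aligned them to mm10 with tophat or hisat2 (the submitters' processing notes name TopHat2 2.0.12 and bcl2fastq) and quantified genes in SeqMonk. The annotation version and the strand setting are not given in the sources used here. The deposited values are log2 RPKM, although their name says log CPM, with genes without reads written as 0.9 read. Whole reads were recovered from them for 100% of 934740 values within 0.01 read, and RPM, RPKM and exact Poisson intervals were computed from those reads. Tests, log2 differences and ratios used the deposited log2 values, and levels and days of first rise the reads, with 0 as 0. The intervals and floors cover counting error only.

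Genes with at least 1 RPM in at least 4 libraries (14612) were fitted with limma 3.58.1 in R 4.3.3 (eBayes with trend, two-sided, Benjamini-Hochberg): day, line and label over days 5 to 8, line by label added for the interaction, and day alone over all 36 libraries. The fit was tried on simulated counts drawn independently for each library. They had no effect shared by the days of a culture, so the trial says nothing of repeat sampling. The members, gene lists, windows and tests were chosen with earlier results of these data known. Named were both members, all genes within 200 kb, the IGF axis lists, marker lists by their sums, and the 5 genes most like each member. The number of a replicate marks the same line and label on every day. The median correlation of the deviations from day means between libraries of a culture was 0.12 to 0.18 over the 4 numbers, with single pairs as low as -0.60. Protein sequences were not used here.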

Additional observations from a re-analysis of the deposited data

Results flagged for a closer look

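Of 27 groups of 4 libraries (H19, Igf2 and their ratio on 9 days), 1 had a library far from the rest. Igf2 on day 1 in X14 double stood at -1.02 log2 RPKM, from 4 reads, with 2, 0 and 0 reads in the other cultures. Chance sets apart about 1 in 20 such groups.

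The label difference of H19 differed between the periods. It was 2.52 higher on the log2 scale on days 4 to 8 than on days 0 to 3 (limma adjusted p = 5.0e-06). The comparison was set up after the levels had been seen. All 8 early pairs were below 0 and all 10 late pairs above it. Of the early pairs, X18 on day 1 had 3 reads in each library. X14 on day 0 had 1 and 2 reads, from libraries that go against their labels.

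The Igf2 label difference had opposite signs on day 5, with a mean of -0.95 over the lines, and on days 6 to 8, with a mean of 1.48. This difference was not tested.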

How the results depend on the processing

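Of 181 recomputed values, 136 had the direction and side of the threshold, or the size, given in the report. The cause of the others was not tested unless fewer genes or libraries gave it. The label difference of H19 over days 5 to 8 was called under every alternative on those days (1.49 to 1.83 without 1 replicate). It was 0.39 over all days, -1.0 on days 0 to 3 (adjusted p = 0.13) and -0.88 on days 1 to 3 (adjusted p = 0.029), windows chosen, like days 4 to 8 and 6 to 8, after seeing the data. That of Igf2 passed the adjusted p with voom (1.17), with the replicate block (0.87), on days 7 and 8 (1.23), 6 to 8 (1.48) and 4 to 8 (0.99), and was -0.0053 on days 1 to 3. The line difference of H19, near 0, was -0.022 after quantile normalization, -0.044 on days 6 to 8 and -0.13 to 0.20 without 1 replicate. That of Igf2 passed on days 7 and 8 (-1.30) and 6 to 8 (-1.18). The Igf2 interaction was -0.094 with voom, -0.031 over all days, -0.042 on days 7 and 8, -0.18 on days 6 to 8 and -0.11 on days 4 to 8. The interaction was not run with the block or without a replicate, since 1 culture stands for each line and label.

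The 684 genes called by label became 318 at a mean of at least 10 RPM, 437 over all days, 1495 without a minimum fold, 0 on days 0 to 3 (2260 at an unadjusted p under 0.05), 1146 on days 1 to 3, and 127 to 330 without 1 replicate. The 2 called by line became 1 at a mean of at least 10 RPM, 52 with the replicate block, 214 on days 7 and 8, 8 on days 6 to 8, 1 on days 0 to 3, 1 on days 1 to 3 and 0 to 2 without 1 replicate. The block correlation was -0.15. With the block Igf2 passed the adjusted p by label at under 2-fold, so no call of H19 or Igf2 changed. With the block 1018 genes were called by label. On day 8 against day 0 the replicate number was instead a factor in the fit, without a correlation, and 5267 genes were called. The 230 genes called by period were 562 without day 0, and the 5114 called on day 8 against day 0 were 3222 at a mean of at least 10 RPM. The log2 ratio of day 8 was 3.48 from RPM, not per length. The first rise moved to day 3 for H19 and day 5 for Igf2 at the 4 times limit, and lay on days 1 to 2 and 2 to 3 without 1 replicate. Low counts limit the early days, with 0 to 11 reads of Igf2 in a library up to day 2.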
